A study of Homo sapiens with 5 samples.

Results

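A set of 10 nuclear genes that join serine synthesis, mitochondrial folate metabolism and the amino acid stress response were followed in HEK293T cells given ascorbic acid (vitamin C) and in control cells. They were selected by symbol from a table of 28278 gene symbols: PHGDH, PSAT1, PSPH, SHMT2, MTHFD2, ALDH1L2, PCK2, ASNS, CHAC1 and TRIB3. All 10 were present and all 10 passed the filter on low counts, among 15271 genes tested. The messenger RNA of 5 libraries was sequenced, 2 from cells with ascorbic acid and 3 from control cells. HEK293T is an established transformed line of embryonic kidney origin, so the groups are cultures of a single line, labelled WT in genotype. Both groups grew in high-glucose DMEM with heat-inactivated FBS, penicillin and streptomycin. Ascorbic acid was added 24 h after seeding, and the medium was renewed every 6 h. Exposure lasted 24 h or 36 h according to whether DNA or RNA methylation was to be assayed; the labels do not tie either time to these libraries, and they name no dose. The labels also do not say that the libraries of a group came from separate cultures, so p-values measure the spread between libraries, which may be technical.

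ATF4 is a transcription factor whose protein is made more efficiently when kinases phosphorylate eIF2alpha in response to amino acid shortage, unfolded protein, heme shortage or viral RNA. Under these conditions general protein synthesis slows while ATF4 switches on genes for amino acid supply. Serine is made from a glycolytic intermediate by PHGDH, PSAT1 and PSPH, and in mitochondria SHMT2 moves a carbon from serine to folate, which MTHFD2 and ALDH1L2 then oxidise. Much of the regulation of ATF4 lies in translation, which mRNA levels do not show.

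Total gene counts were 48015766 and 41739602 in the ascorbic acid libraries and 57212071, 38229722 and 35106664 in the control libraries. Levels are given in CPM, counts scaled to a common total after TMM normalisation. From 71.3 to 75.9% of the counts between 1 and 10 were even in each library, so fewer fragments than counts may lie behind a value. The 10 genes together took 0.147 to 0.149% of all counts in ascorbic acid libraries and 0.142 to 0.147% in control libraries. Markers of fibroblasts summed to 10.5 to 11.7 CPM in ascorbic acid libraries and 6.82 to 7.02 CPM in control libraries. Most of that sum was COL1A1, which averaged 10.3 CPM with ascorbic acid and 6.45 CPM in control cells. Only 2 of their 8 genes were high enough to test, COL1A1 rose, COL1A2 had at most 1 count and FAP was at 0 in all 5 libraries. Neural-type markers that HEK293 lines carry summed to 57.4 to 61.3 CPM in ascorbic acid libraries and 42.2 to 46.0 CPM in control libraries. Of these, 3 of 6 rose (NEFM, NES and MAP2), against 8.53% of all tested genes. The others, NEFL, INA and TUBB3, did not pass (log2 fold changes -0.07, 0.02 and 0.33). MAP2 did not pass without ascorbic acid replicate 1 or control replicate 1 (edgeR adjusted p = 0.342 and 0.196), nor with DESeq2 (adjusted p = 0.107). The part of these differences in the results below was not tested, and in bulk RNA a change in the share of cells of a type and a change in RNA per cell cannot be told apart.

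Of the 10 genes, 2 rose with ascorbic acid, PCK2 and ALDH1L2. None fell by edgeR's quasi-likelihood test at a Benjamini-Hochberg adjusted p of at most 0.05. DESeq2 and limma-voom also called 0 lower at the adjusted threshold. At an unadjusted p under 0.05, only SHMT2 was lower by edgeR, while 2 genes were lower by DESeq2 and 1 by limma-voom. Over all tested genes 14.3% passed in either direction, 8.53% higher and 5.76% lower, so 2 of 10 is close to the share of genes at large. The split was 1303 higher and 879 lower with TMM scaling, and 1712 higher and 389 lower with library totals. The median log2 fold change was 0.04 over the 10 genes and 0.00 over all tested genes. The CPM values of the groups did not overlap for 5 of the 10 genes, 3 higher (PCK2, ALDH1L2 and TRIB3) and 2 lower (SHMT2 and MTHFD2). That occurred for 43.1% of all tested genes, 22.6% higher and 20.4% lower.

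**Figure D1:**
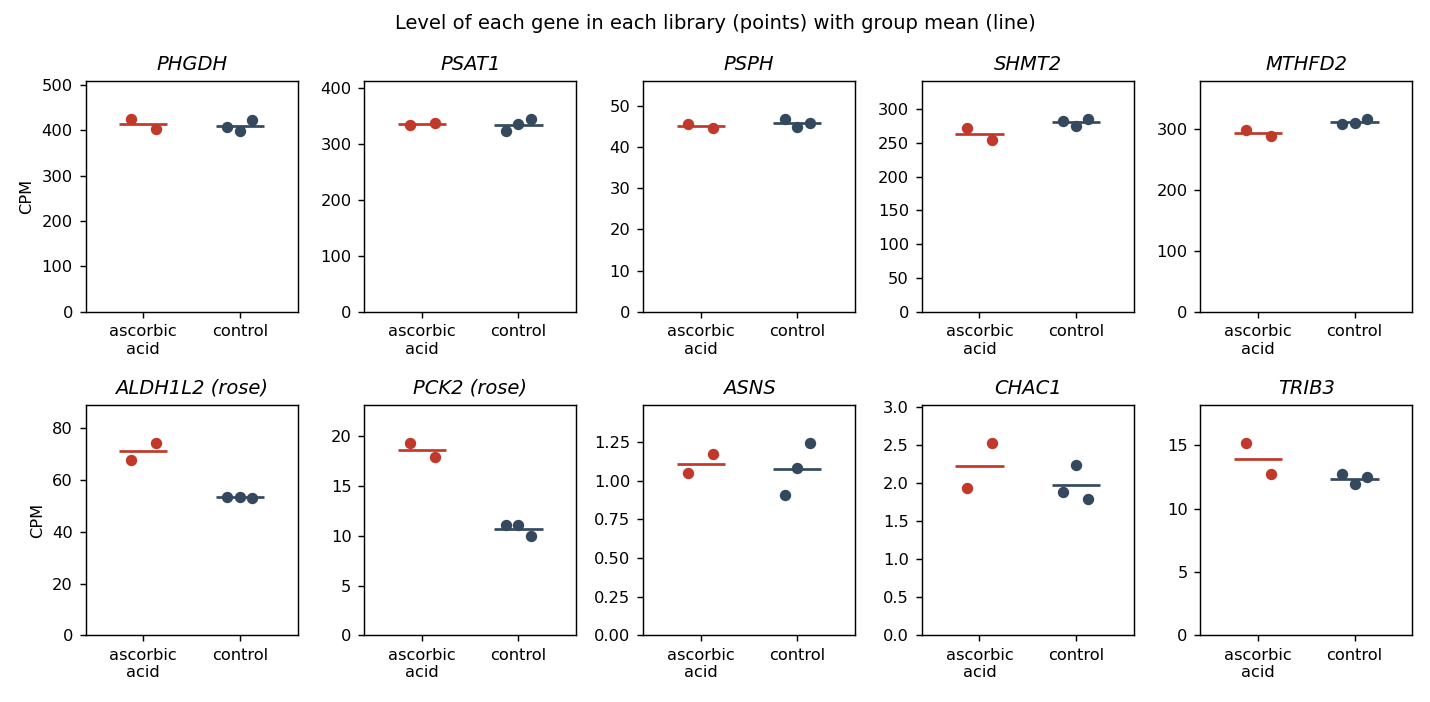
Level in CPM (linear axis from 0, a scale per gene) of the 10 genes in each ascorbic acid library (red, 2 libraries) and control library (dark blue, 3 libraries), with the group mean as a line. PCK2 and ALDH1L2 stand clear of control in both ascorbic acid libraries, while the serine synthesis genes share the same range in both groups.

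PCK2 is the mitochondrial phosphoenolpyruvate carboxykinase, which turns oxaloacetate into phosphoenolpyruvate inside mitochondria. Its gene lies on the plus strand at chr14:24094053-24110598 (GRCh38). PCK2 had 935 and 764 counts in the ascorbic acid libraries, against 622, 419 and 344 in the control libraries. Scaled to depth, PCK2 stood at 19.3 and 17.9 CPM in ascorbic acid libraries and at 11.05, 11.03 and 9.94 CPM in control libraries. Both ascorbic acid libraries were well above every control library. The means were 18.6 ± 0.997 CPM with ascorbic acid (SD, n = 2) and 10.7 ± 0.636 CPM in control cells (SD, n = 3). The difference was 1.74-fold, with a 95% interval of 1.53 to 1.97, or 0.80 ± 0.09 (SE) on the log2 scale (edgeR adjusted p = 2.29e-07). PCK2 ranked 29 by size of rise among 10585 tested genes that averaged 5 CPM or more, and 539 among all 15271 tested genes. Genes at 5 to 20 CPM, the range of PCK2, rose in 13.6% of cases and fell in 3.27%.

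ALDH1L2 is the mitochondrial dehydrogenase that oxidises formyl-tetrahydrofolate to carbon dioxide with release of NADPH. It lies on the minus strand at chr12:105019784-105084577. ALDH1L2 stood at 67.8 and 74.2 CPM in ascorbic acid libraries, against 53.3, 53.6 and 53.0 CPM in control libraries. The control libraries were nearly alike and both ascorbic acid libraries lay above them. The means were 71.0 ± 4.52 CPM with ascorbic acid (SD, n = 2) and 53.3 ± 0.292 CPM in control cells (SD, n = 3). The difference was 1.33-fold, with a 95% interval of 1.23 to 1.44, or 0.41 ± 0.06 (SE) on the log2 scale (edgeR adjusted p = 5.55e-06). Its rise was of rank 248 among those 10585 genes and 1635 among all 15271 tested genes, and 7.18% of genes at 20 to 100 CPM rose. Exons of C12orf45 on the opposite strand overlap 1.70% of the exon bases of ALDH1L2, and no label says whether the counting used strand.

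The serine synthesis enzymes showed no change past the test. PHGDH, which oxidises phosphoglycerate in the committed step of the route (chr1:119648411-119744226, plus strand), had 424 and 403 CPM in ascorbic acid libraries and 408, 398 and 422 CPM in control libraries. PSAT1, the aminotransferase of the next step (chr9:78297143-78330093, plus strand), had 333 and 338 CPM in ascorbic acid libraries and 322, 335 and 343 CPM in control libraries. PSPH, the phosphatase that releases serine (chr7:56011051-56051604, minus strand), had 45.6 and 44.6 CPM in ascorbic acid libraries and 46.7, 44.9 and 45.8 CPM in control libraries. The groups overlapped for all 3 enzymes. The log2 fold change was 0.01 for PHGDH with a 95% interval of -0.08 to 0.11, 0.01 for PSAT1 (-0.08 to 0.10) and -0.02 for PSPH (-0.14 to 0.10). These intervals leave room for small changes and lie below the estimates for ALDH1L2 and PCK2.

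The first mitochondrial steps of folate metabolism did not pass either, although their groups did not overlap. SHMT2, the mitochondrial serine hydroxymethyltransferase (chr12:57229327-57234935, plus strand), had 272 and 255 CPM in ascorbic acid libraries and 282, 276 and 285 CPM in control libraries. MTHFD2, the mitochondrial methylene-tetrahydrofolate dehydrogenase and cyclohydrolase (chr2:74198562-74217565, plus strand), had 298 and 288 CPM in ascorbic acid libraries and 307, 309 and 315 CPM in control libraries. Both ascorbic acid libraries were the lowest for each gene, by a small margin. The log2 fold change was -0.09 ± 0.04 (SE) for SHMT2 (edgeR adjusted p = 0.175) and -0.09 ± 0.04 (SE) for MTHFD2 (edgeR adjusted p = 0.202). Genes of that level, 200 to 500 CPM, had a median log2 fold change of -0.07, and 20% of them fell while 3.25% rose. In GENCODE v29, opposite-strand exons overlap 27.2% of the exon bases of MTHFD2 (SLC4A5) and 8.83% of those of SHMT2 (AC137834.2). The counts of MTHFD2 and SHMT2 may therefore hold reads of those genes.

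The remaining genes respond to ATF4 outside the serine and folate routes. TRIB3, a pseudokinase that restrains ATF4 and AKT (chr20:362835-397559, plus strand), had 15.2 and 12.7 CPM in ascorbic acid libraries and 12.7, 11.9 and 12.4 CPM in control libraries. The lower ascorbic acid library was barely above the highest control library, and the log2 fold change of 0.17 ± 0.09 (SE) did not pass (edgeR adjusted p = 0.226). CHAC1, which degrades glutathione (chr15:40952962-40956519, plus strand), had 94 and 108 counts in ascorbic acid libraries and 106, 85 and 62 in control libraries. At 1.94 and 2.53 CPM with ascorbic acid and 1.88, 2.24 and 1.79 CPM in control cells, the CHAC1 groups overlapped, and its log2 fold change of 0.18 had a 95% interval of -0.23 to 0.59.

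ASNS, which makes asparagine from aspartate and glutamine (chr7:97852118-97872542, minus strand), had only 51 and 50 counts in ascorbic acid libraries and 51, 41 and 43 in control libraries. The groups overlapped, and the log2 fold change of 0.06 had a 95% interval of -0.50 to 0.62, which holds the estimate for ALDH1L2 and not that for PCK2. GENCODE v29 places a same-strand gene, AC079781.5, over 44.6% of the ASNS exon bases. RefSeq also has a long noncoding readthrough gene, CZ1P-ASNS, that spans it, and the table lists CZ1P-ASNS with 16 and 12 counts in ascorbic acid libraries and 30, 25 and 17 in control libraries. The pseudogene ASNSP1 had 63 and 55 counts in ascorbic acid libraries and 80, 50 and 38 in control libraries. How reads shared by overlapping genes were counted is not stated, which makes the ASNS level uncertain.

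**Figure D2:**
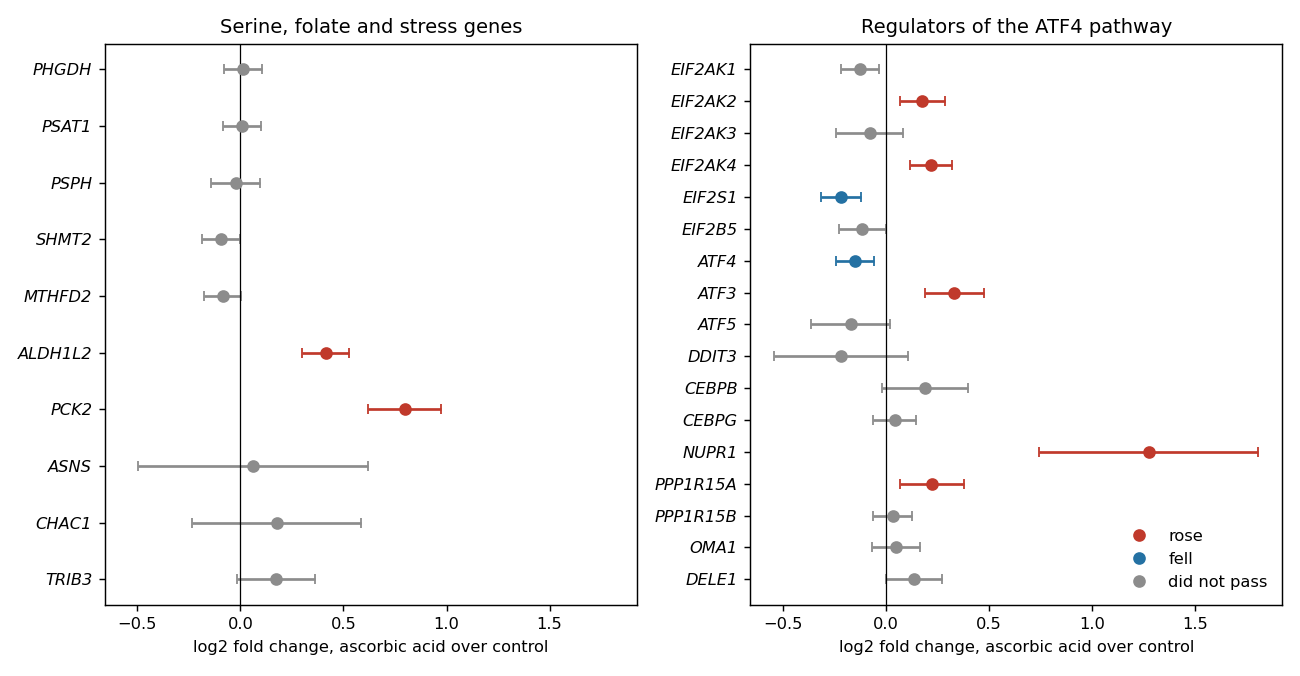
Log2 fold change, ascorbic acid over control, with 95% intervals as bars, for the 10 genes on the left and for 17 regulators of the pathway on the right, coloured by the edgeR call (red rose, blue fell, grey did not pass). On the left only PCK2 and ALDH1L2 are red, and the bars of ASNS and CHAC1 are the widest, at about 1 and 2 CPM.

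Per kilobase of the longest principal transcript, the 10 genes covered a wide range. PHGDH stood at 159.9 CPM per kb with ascorbic acid and 158.4 in control cells, and PSAT1 at 153 with ascorbic acid and 152 in control cells. SHMT2 followed with 104 CPM per kb with ascorbic acid and 110.6 in control cells, then MTHFD2 with 65.7 and PSPH with 20.7 with ascorbic acid, against 69.7 and 21.0 in control cells. The genes that rose sat in the lower part of this order. ALDH1L2 had 9.41 ± 0.599 CPM per kb with ascorbic acid (SD, n = 2) and 7.06 ± 0.0386 in control cells (SD, n = 3). PCK2 had 7.88 ± 0.423 CPM per kb with ascorbic acid (SD, n = 2) and 4.53 ± 0.270 in control cells (SD, n = 3). TRIB3, at 5.57 CPM per kb with ascorbic acid and 4.95 in control cells, therefore ranked below PCK2 in the ascorbic acid group and above it in the control group. CHAC1 (1.43 with ascorbic acid, 1.26 in control cells) and ASNS (0.471 with ascorbic acid, 0.457 in control cells) were the lowest per kb.

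Ratios within a library set the rises against the rest of the route and do not depend on scaling. Per 1000 counts of PHGDH, PSAT1 and PSPH together, PCK2 had 24.0 and 22.8 counts in ascorbic acid libraries and 14.2, 14.2 and 12.2 in control libraries. ALDH1L2 had 228 and 258 counts per 1000 MTHFD2 counts in ascorbic acid libraries and 173, 173 and 168 in control libraries. Both ratios were higher in each ascorbic acid library than in any control library. MTHFD2 had 695 and 695 counts per 1000 counts of the cytosolic enzyme MTHFD1 in ascorbic acid libraries and 635, 638 and 638 in control libraries, a ratio of genes that were both lower with ascorbic acid, MTHFD1 by more. SHMT2 was 5.04 and 4.80 times the counts of cytosolic SHMT1 in ascorbic acid libraries and 5.23, 4.92 and 5.37 times in control libraries, where the groups overlapped. These ratios are descriptions, since an exact permutation test of 2 against 3 libraries cannot give a p below 0.1.

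None of the 6 tested paralogs passed the edgeR test, against 14.3% of all tested genes, and 6 genes are too few to tell 0 from that share. None had an unadjusted p under 0.05, and DESeq2 and limma-voom called 0. SHMT1, the cytosolic counterpart of SHMT2, had a log2 fold change of -0.02, and MTHFD2L, the mitochondrial relative of MTHFD2, one of 0.02. CHAC2 had a value of -0.09, TRIB1 one of -0.12 and TRIB2 one of -0.20 on the same log2 scale. The cytosolic PCK1 had 14 and 12 counts in ascorbic acid libraries and 10, 8 and 6 in control libraries, with a log2 fold change of 0.60 ± 0.54 (SE), so a rise of the size of PCK2 was not detectable at this depth. ALDH1L1, the cytosolic relative of ALDH1L2, had 4 and 2 counts in ascorbic acid libraries and 0 in the control libraries and was not tested.

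The promoters of the genes are shown because ATF4 is known to bind a composite DNA element, the CARE, with C/EBP partners. The windows run from 250 bases before to 50 bases after a start in RefSeq (GRCh38.p14), and 7 of the 10 genes matched a window, without ALDH1L2, PSPH and SHMT2. The 8 letters TGATGNAA, a core of the element, were searched on both strands, and a match is in capitals below. Of 27305 genes with a window, 1217 held a match (4.46%). Among the 7 matched genes ASNS and CHAC1 held one, and PCK2, PHGDH, PSAT1, MTHFD2 and TRIB3 held none. The ASNS match began 68 bases before the start on the plus strand of the window (chr7:97872359-97872658, gene on the minus strand), and the CHAC1 match 209 bases before the start on the opposite strand (chr15:40953221-40953520, plus strand). The PCK2 window was chr14:24094061-24094360 on the plus strand.
ASNS: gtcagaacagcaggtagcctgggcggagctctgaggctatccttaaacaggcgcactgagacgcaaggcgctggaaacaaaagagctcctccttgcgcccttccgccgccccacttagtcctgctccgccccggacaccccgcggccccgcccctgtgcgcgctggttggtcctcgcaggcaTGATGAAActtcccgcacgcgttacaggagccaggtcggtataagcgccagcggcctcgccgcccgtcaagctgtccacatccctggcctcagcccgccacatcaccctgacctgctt
CHAC1: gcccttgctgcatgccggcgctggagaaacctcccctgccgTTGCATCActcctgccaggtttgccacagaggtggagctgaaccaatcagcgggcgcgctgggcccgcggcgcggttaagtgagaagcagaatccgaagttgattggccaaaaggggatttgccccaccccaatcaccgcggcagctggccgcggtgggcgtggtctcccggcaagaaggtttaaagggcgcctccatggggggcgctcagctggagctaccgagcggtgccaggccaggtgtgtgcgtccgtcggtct
PCK2: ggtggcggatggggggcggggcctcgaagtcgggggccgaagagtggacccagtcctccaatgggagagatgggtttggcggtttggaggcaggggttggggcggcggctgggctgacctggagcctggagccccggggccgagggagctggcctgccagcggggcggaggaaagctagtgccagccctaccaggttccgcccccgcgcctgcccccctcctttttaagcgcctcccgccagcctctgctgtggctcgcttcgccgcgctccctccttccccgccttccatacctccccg
The genes with the letters in their window, ASNS and CHAC1, were not among those that rose. PCK2, which rose, had none in these 300 bases, and ALDH1L2, which also rose, had no window. The intervals of the log2 fold change were -0.50 to 0.62 for ASNS and -0.23 to 0.59 for CHAC1. Both hold the ALDH1L2 estimate of 0.41, so a rise of that size in either gene could be missed here. The comparison describes the windows only, and a link between the letters and the rises was not tested. In the list of other known ATF4 targets, 14 of 31 matched genes held the letters (45.2%), with JDP2 and SLC1A4 among those that rose and NARS1 among those that fell. SLC6A9, which rose, and WARS1, EPRS1 and DDIT4, which fell, had windows without a match.

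**Figure D3:**
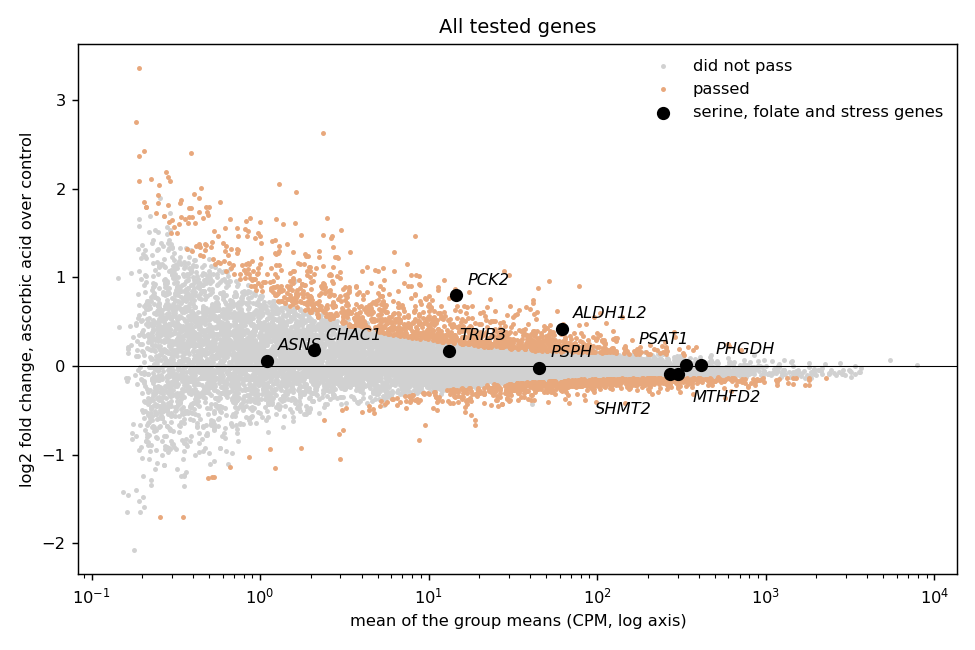
Log2 fold change, ascorbic acid over control, against the mean of the group means in CPM (log axis) for the 15271 tested genes (orange passed, grey did not), with the 10 genes in black. PCK2 and ALDH1L2 lie in the upper part of the genes of their level, and PHGDH, PSAT1, SHMT2 and MTHFD2 lie near 0 among the genes above 200 CPM.

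Upstream, ATF4 mRNA fell slightly. ATF4 had 575 and 535 CPM in ascorbic acid libraries and 628, 601 and 615 CPM in control libraries, all of which were above both ascorbic acid libraries. Its means were 555 ± 28.4 CPM with ascorbic acid (SD, n = 2) and 615 ± 13.7 CPM in control cells (SD, n = 3), and the difference was -0.15 ± 0.05 (SE) on the log2 scale (edgeR adjusted p = 0.0255). ATF4 no longer passed when ascorbic acid replicate 2, control replicate 1 or control replicate 3 was left out (log2 fold changes -0.11, -0.13 and -0.15), nor with library totals or upper-quartile factors in place of TMM (adjusted p = 0.0867 and 0.0526). With the trend of fold change with level removed by cyclic loess, its log2 fold change was -0.07 (adjusted p = 0.241). Genes at 500 CPM or more, the range of ATF4, had a median log2 fold change of -0.08, and 21.7% of them fell. PCK2 had 33.5 and 33.4 counts per 1000 ATF4 counts in ascorbic acid libraries and 17.6, 18.3 and 16.1 in control libraries.

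Of the 17 regulators of the pathway, 5 rose, 2 fell and 10 did not pass (41.2% passed, against 14.3% of all tested genes), with a median log2 fold change of 0.04. The count of 7 that passed was 4 without ascorbic acid replicate 2 or without control replicate 3. Differences in parentheses here and below are log2 fold changes ± SE. NUPR1, a small stress-induced chromatin protein, had few counts, 79 and 86 in ascorbic acid libraries and 40, 28 and 28 in control libraries. Its levels were 1.63 and 2.01 CPM in ascorbic acid libraries and 0.711, 0.737 and 0.809 CPM in control libraries (1.28 ± 0.26, edgeR adjusted p = 0.00114). ATF3, a stress-induced relative of ATF4, had 31.7 and 31.2 CPM in ascorbic acid libraries and 26.2, 24.5 and 23.9 CPM in control libraries (0.33 ± 0.07, edgeR adjusted p = 0.00137). EIF2AK4, the kinase GCN2 that senses amino acid shortage, had 89.8 and 90.3 CPM in ascorbic acid libraries and 76.6, 78.1 and 77.4 CPM in control libraries (0.22 ± 0.05, edgeR adjusted p = 0.00350). For these 3 genes both ascorbic acid libraries were above every control library. EIF2S1, which encodes eIF2alpha itself, fell, with 156 and 157 CPM in ascorbic acid libraries and 191, 181 and 174 CPM in control libraries (-0.22 ± 0.05, edgeR adjusted p = 0.00261). EIF2AK2, the kinase PKR activated by double-stranded RNA, rose by 0.18 ± 0.05 on the log2 scale (edgeR adjusted p = 0.0261), and PPP1R15A, the phosphatase subunit that removes the phosphate of eIF2alpha, by 0.23 ± 0.08 (edgeR adjusted p = 0.0443). With DESeq2 PPP1R15A did not pass (adjusted p = 0.0806). EIF2AK2 did not pass without ascorbic acid replicate 2, control replicate 1 or control replicate 3 (adjusted p = 0.314, 0.0866 and 0.104), nor PPP1R15A without ascorbic acid replicate 1, ascorbic acid replicate 2, control replicate 2 or control replicate 3 (adjusted p from 0.0738 to 0.235).

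The regulators that did not pass included other transcription factors and kinases. DDIT3, the transcription factor CHOP, had a log2 fold change of -0.22, ATF5 of -0.17 and CEBPB of 0.19 (edgeR adjusted p = 0.397, 0.242 and 0.227). The other eIF2alpha kinases EIF2AK1, the heme-sensing HRI, and EIF2AK3, the endoplasmic reticulum kinase PERK, had log2 fold changes of -0.12 and -0.08 (edgeR adjusted p = 0.0571 and 0.564). EIF2AK1 passed with DESeq2 (adjusted p = 0.0345). OMA1 and DELE1, which relay mitochondrial stress to HRI, had log2 fold changes of 0.05 and 0.14, and neither passed.

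A list of 35 other ATF4 targets gave 4 rises, 4 falls and 26 genes that did not pass, out of 34 tested (23.5% passed, against 14.3% of all tested genes), and its median log2 fold change was -0.02. FGF21 was too low to test. SLC6A9, the glycine transporter GLYT1, had 22.2 and 21.0 CPM in ascorbic acid libraries and 15.1, 13.7 and 15.6 CPM in control libraries (0.55 ± 0.08, edgeR adjusted p = 2.42e-05). Its groups did not overlap, and the rise lay between those of ALDH1L2 and PCK2. The other rises were JDP2, a leucine zipper repressor (0.53 ± 0.14), SLC1A4, a transporter of serine and other neutral amino acids (0.33 ± 0.11), and SLC7A11, the cystine and glutamate exchanger (0.20 ± 0.06). SLC1A4 was near the threshold (edgeR adjusted p = 0.0494). It did not pass with DESeq2 (adjusted p = 0.107), limma-voom (0.0637) or DESeq2 size factors in edgeR (0.0510). The genes that fell were the tRNA synthetases WARS1 (-0.19 ± 0.05), EPRS1 (-0.15 ± 0.04) and NARS1 (-0.16 ± 0.05), which charge tRNAs for tryptophan, glutamate with proline, and asparagine, and DDIT4, an inhibitor of mTORC1 (-0.17 ± 0.06). WARS1 and NARS1 lay at 100 to 200 CPM, where 13.2% of tested genes fell. EPRS1 lay at 500 CPM or more, where 21.7% fell, and DDIT4 at 20 to 100 CPM, where 7.14% fell. With the trend of fold change with level removed by cyclic loess, 2 genes of the list rose and 0 fell. The balance also moved with scaling and tool. Library totals in edgeR gave 5 rises and 1 fall, upper-quartile factors 5 and 3, and DESeq2 3 and 5. With library totals EPRS1, NARS1 and DDIT4 did not pass (edgeR adjusted p = 0.0648, 0.0843 and 0.153), nor DDIT4 with upper-quartile factors (0.0756). The count of 8 that passed was 3 without control replicate 1, 4 without control replicate 2, 5 without control replicate 3 and 5 without ascorbic acid replicate 2. The call of SLC6A9 held without any single library. JDP2 did not pass without ascorbic acid replicate 1 (adjusted p = 0.223). SLC1A4 did not pass without ascorbic acid replicate 2 or any single control replicate (0.0790 to 0.419), nor SLC7A11 without ascorbic acid replicate 2, control replicate 1 or control replicate 3 (0.0693 to 0.201). Among the falls, EPRS1 did not pass without control replicate 1 or control replicate 2 (0.0702 and 0.0640), NARS1 without ascorbic acid replicate 1, control replicate 1 or control replicate 2 (0.0598 to 0.112), and DDIT4 without any single library (0.0591 to 0.178).

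**Figure D4:**
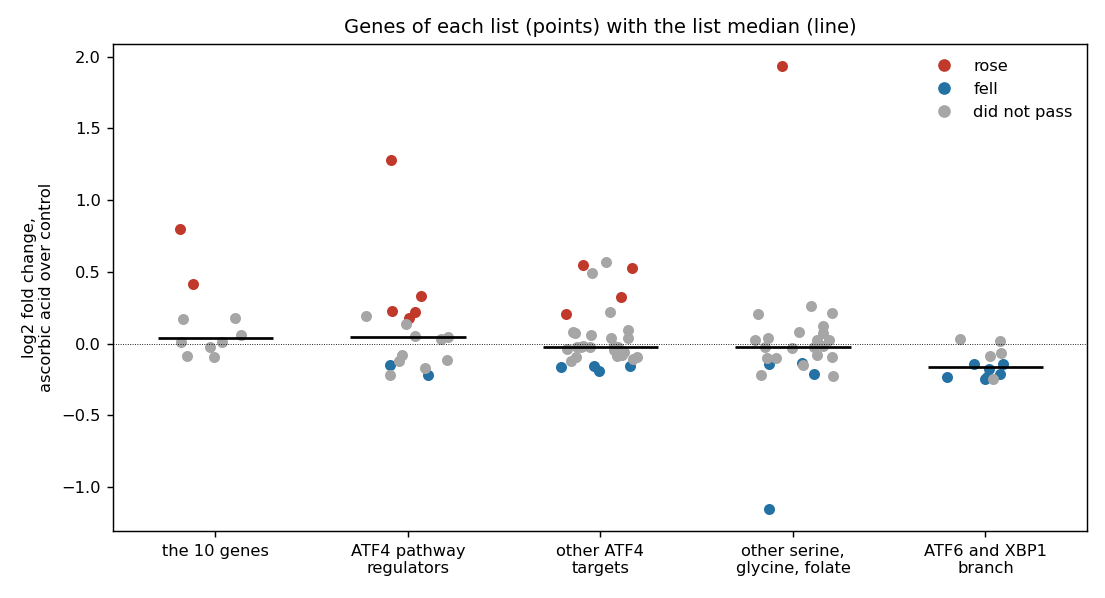
Log2 fold change, ascorbic acid over control, of each tested gene (points, red rose, blue fell, grey did not pass) in the 10 genes and 4 lists, with the list median as a line; the spread of points across a list has no meaning. The medians of the first 4 columns lie between -0.02 and 0.04, and that of the ATF6 and XBP1 branch at -0.16.

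The wider serine, glycine and folate list, 26 of 28 genes tested, had 1 rise, 4 falls (19.2% passed, against 14.3% of all tested genes) and a median log2 fold change of -0.02. MTHFD1, the cytosolic enzyme of the same folate interconversions as MTHFD2, had 428 and 414 CPM in ascorbic acid libraries and 484, 484 and 494 CPM in control libraries (-0.21 ± 0.04, edgeR adjusted p = 0.00131), with no overlap. CBS, which draws homocysteine and serine into cystathionine, had 27 and 41 counts in ascorbic acid libraries and 80, 58 and 74 in control libraries (-1.16 ± 0.29, edgeR adjusted p = 0.00690). Without ascorbic acid replicate 1 the CBS call ended (-0.80, adjusted p = 0.127). SFXN1, the mitochondrial serine carrier, also fell (-0.14 ± 0.04, edgeR adjusted p = 0.0316). SFXN1 did not pass without ascorbic acid replicate 1 or any single control replicate (adjusted p from 0.0565 to 0.156). FOLR1, a folate receptor, was near the floor with 20 and 16 counts in ascorbic acid libraries and 6, 0 and 7 in control libraries (edgeR adjusted p = 0.0377), and its call ended without either ascorbic acid replicate, control replicate 1 or control replicate 2 (adjusted p from 0.112 to 0.177). The count of 5 that passed was 2 without ascorbic acid replicate 1, control replicate 1 or control replicate 2.

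Genes of the ATF6 and XBP1 arms of the unfolded protein response, which run beside the ATF4 arm, gave 7 falls and 0 rises among 12 tested genes by edgeR, with a median log2 fold change of -0.16. Over all tested genes 5.76% fell, but 13.2% of those at 100 to 200 CPM, 20% at 200 to 500 CPM and 21.7% at 500 CPM or more did, and HYOU1 and CALR, among others of the list, are at such levels. With the trend with level removed, 4 of the 12 genes passed. No gene of this list was higher at an unadjusted p under 0.05, and DESeq2 and limma-voom also called 7 lower and 0 higher. HYOU1, a chaperone of the endoplasmic reticulum, fell by 0.24 on the log2 scale (edgeR adjusted p = 0.000417), the lectin chaperone CALR by 0.23 (edgeR adjusted p = 0.00173), and the transcription factor XBP1 by 0.23 (edgeR adjusted p = 0.00288). DNAJB11, a cochaperone, stood at -0.21 ± 0.05 on that scale (edgeR adjusted p = 0.00625). These 4 calls held without any single library, while the count of 7 was 6 without ascorbic acid replicate 1, control replicate 2 or control replicate 3, 5 without ascorbic acid replicate 2 and 4 without control replicate 1.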

How the data were processed

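The deposited table holds read counts per gene as whole numbers, not normalized. Per the submitters' processing notes, the authors used Trimmomatic 0.39, STAR, featureCounts and DESeq2 with hg38 (GRCh38); the sources used here do not give the annotation, strand setting or handling of shared reads. Columns were matched to samples by name, taking the prefix "con" for control and "vc" for vitamin C (ascorbic acid). No column was left over and no line lacked a gene name.

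Genes were filtered with filterByExpr (minimum count 10), scaled by TMM (0.984 to 1.03) and tested in R 4.3.3 with the two-sided quasi-likelihood test of edgeR 4.0.16 (robust glmQLFit, then glmQLFTest) over 5 libraries with no covariates. P-values were adjusted by Benjamini-Hochberg over 15271 genes, with a threshold of 0.05; every adjusted p for an alternative comes from that alternative's own fit of all its genes. The biological coefficient of variation was 4.6%. The fold change and F statistic give the standard errors. Replicates differed beyond counting noise (chi-square per degree of freedom 3.95 to 7.20). Positions, lengths and exon overlaps come from GENCODE v29, promoters from RefSeq GRCh38.p14. The counts may rest on another annotation, in which the exon overlaps could differ.

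The members and lists were chosen with earlier results of these data known. Genes named by rule are the 10 members, their paralogs, the regulators and, per other list, up to 4 that passed in each direction by smallest p; marker genes, overlapping genes and the pseudogene were named after their values were seen. For 1 further gene chosen by this rule, no values are reported here. MTHFD1L is in 2 lists. Alternatives were DESeq2 1.42.0, limma-voom (limma 3.58.1), upper-quartile factors, library totals, DESeq2 size factors, no filter, the replicate number as a block and each library left out, with halved counts and a cyclic loess fit chosen after seeing the data. Where 1 ascorbic acid library was omitted, the remaining one was taken to vary as the controls do.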

Additional observations from a re-analysis of the deposited data

How the results depend on the processing

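PCK2 and ALDH1L2 rose in every one of the 14 alternatives (log2 fold change 0.74 to 0.84 and 0.34 to 0.48), and the other 8 genes passed in none. The count over all genes was 2182 (1303 higher, 879 lower), 1712 higher and 389 lower with library totals, 1824 with DESeq2 (922 higher, 902 lower), 1431 with the trend with level removed by cyclic loess (920 higher, 511 lower), and 1180 to 2047 with a library left out, lowest without control replicate 1 (845 higher, 335 lower). With the replicate block it was 1880 (1076 higher, 804 lower). The shared numbers are not shown to pair libraries, since deviations of same-numbered libraries correlated at 0.02 and 0.01 and there were only 2 such pairs. The count of other ATF4 targets that passed, 8, was 4 with the replicate block, 2 with the trend removed and 3 to 7 with a library left out. The count of other serine, glycine and folate genes, 5, was 3 with the trend removed and 2 to 4 with a library left out, that of regulators, 7, was 4 to 6 with a library left out, and that of the ATF6 and XBP1 branch, 7, was 4 with the trend removed. JDP2, SLC1A4, SLC7A11, EPRS1, NARS1, DDIT4, EIF2AK2, PPP1R15A, ATF4, SFXN1, FOLR1 and MAP2 each lost their call in at least 3 alternatives, and WARS1 only with the trend removed (adjusted p = 0.0519). For SFXN1 these included edgeR with library totals and with upper-quartile factors (adjusted p = 0.137 and 0.0608). The causes were not tested. ASNS, CHAC1, NUPR1, MAP2, PCK1, FOLR1 and CBS rest on few counts, which limits them.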
